A study of Homo sapiens with 4 samples.

Results

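The genes described here are 7 keratins, KRT8, KRT18, KRT7, KRT19, KRT10, KRT81 and KRT86, out of 26364 gene symbols counted in the tumour cell line NCI-H460. They were taken by symbol from a group of keratins headed by KRT8 and KRT18 that was put together with the values of these same libraries in view. Their levels and ratios are therefore given as a description, with no test. NCI-H460 is an established human line from a non-small cell lung cancer. Its libraries form a layout of drug by radiation, with 1 library per group. The DZNep 4 Gy library came from cells given 4 Gy of gamma radiation and then 2 uM DZNep for 48 h, and the DZNep 0 Gy library from unirradiated cells given the same drug. The DMSO 4 Gy and DMSO 0 Gy libraries came from cells at the same radiation doses that were kept in the solvent DMSO instead. DZNep (3-deazaneplanocin A) is an inhibitor of S-adenosylhomocysteine hydrolase that lowers cellular methylation reactions, including histone methylation by EZH2. All groups share the same tumour line, which is a model of 1 tumour only, and nothing in the labels shows that the 4 libraries came from independent cultures.

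Keratins are the intermediate filament proteins of epithelial cells. A filament needs an acidic type I chain and a basic type II chain in equal amounts, and a chain left without a partner is degraded. KRT8 (type II) and KRT18 (type I) are the pair of simple, single-layered epithelia such as those of lung, liver and gut, where KRT7 (type II) and KRT19 (type I) join or replace them. KRT10 (type I) belongs to the upper layers of the epidermis, where its partner is KRT1, and KRT81 and KRT86 (both type II) are keratins of the hair cortex. The filaments are anchored at desmosomes between cells and at hemidesmosomes on the basal membrane.

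The 4 libraries held between 112461380 and 136594350 counts, and levels are given as CPM, the count scaled to library size, after TMM scaling. A count of 0 allows up to 3 counts, which is 0.0217 to 0.0267 CPM. Of 5 lung lineage markers, 0 reached 1 CPM, and SCGB1A1 had no count. Of 8 general epithelial markers, 4 reached 1 CPM in a library. These were MUC1 at 28.5 to 120 CPM and CLDN7 at 5.66 to 9.28 CPM, with CLDN4 at 2.26 to 3.33 CPM. The last was ESRP1 at 0.578 to 1.69 CPM. EPCAM stood at 0.0440 to 0.491 CPM and CDH1 at 0.202 to 0.343 CPM. All 4 mesenchymal markers reached 1 CPM, with VIM at 755 to 976 CPM and FN1 at 9949 to 22410 CPM. ZEB1 was at 13.1 to 18.7 CPM and CDH2 at 1.49 to 1.71 CPM. The epithelial marker sum moved with DZNep, at 134 CPM in DZNep 4 Gy and 120 CPM in DZNep 0 Gy against 66.0 CPM in DMSO 4 Gy and 38.6 CPM in DMSO 0 Gy. The shift was that of MUC1, since the other 7 markers summed to 14.6 CPM in DZNep 4 Gy and 9.59 CPM in DZNep 0 Gy against 12.2 CPM in DMSO 4 Gy and 10.1 CPM in DMSO 0 Gy. The part of this shift in the keratin values was not tested. In bulk RNA, fewer cells of a kind and less RNA per cell cannot be told apart.

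KRT81 and KRT86 are hard to separate by sequence, so their counts are read together. Their coding sequences in GENCODE v29 were identical at 94.2% of 1454 aligned bases, with 85 differences. The longest identical run was 605 bases, and 49.0% of all 50-base windows of the alignment held no difference. The next nearest relative, the hair keratin KRT83, was identical to KRT81 at 93.3% and to KRT86 at 91.5% of aligned coding bases. It had 91 counts in DZNep 4 Gy and 50 in DZNep 0 Gy, against 47 in DMSO 4 Gy and 49 in DMSO 0 Gy (named after its values were seen). By contrast, KRT8 and KRT7 were identical at 75.5%, and KRT8 and KRT18 at 61.5%. The RefSeq annotation on GRCh38 places the KRT81 gene wholly within the KRT86 gene on the opposite strand, an overlap of 5622 bp, and gives KRT8 and KRT18, also on opposite strands, an overlap of 1006 bp. Whether counting used strand is not given in the sources used here, so reads from overlapping ends cannot be told apart.

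KRT8 was the type II keratin with the most counts. It stood at 2048 CPM in DZNep 4 Gy and 1944 CPM in DZNep 0 Gy, against 862 CPM in DMSO 4 Gy and 709 CPM in DMSO 0 Gy. Both DZNep libraries were above both DMSO libraries, with no overlap. How many of all genes separate in this way is not given here, so for this and later genes it is description only. By count among all symbols KRT8 ranked 62 in each DZNep library, 165 in DMSO 4 Gy and 200 in DMSO 0 Gy. The log2 ratio of DZNep to DMSO was 1.25 at 4 Gy (95% counting interval 1.24 to 1.26) and 1.46 at 0 Gy (1.44 to 1.47), which is 2.38-fold and 2.74-fold.

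KRT18, the type I partner of KRT8, stood at 2070 CPM in DZNep 4 Gy and 1795 CPM in DZNep 0 Gy, against 654 CPM in DMSO 4 Gy and 633 CPM in DMSO 0 Gy. Its DZNep libraries again lay wholly above its DMSO libraries, and it ranked 58 and 71 by count in DZNep 4 Gy and DZNep 0 Gy, against 219 and 235 in DMSO 4 Gy and DMSO 0 Gy. The log2 ratio of DZNep to DMSO was 1.66 at 4 Gy (1.65 to 1.67) and 1.50 at 0 Gy (1.49 to 1.52). At 4 Gy the ratio was larger for KRT18 than for KRT8, and at 0 Gy both ratios were within 0.1 of each other on the log2 scale.

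KRT81 and KRT86, read as a sum, had 30.2 CPM in DZNep 4 Gy and 23.8 CPM in DZNep 0 Gy, against 8.82 CPM in DMSO 4 Gy and 6.92 CPM in DMSO 0 Gy. The log2 ratio of DZNep to DMSO was 1.77 at 4 Gy (1.67 to 1.88) and 1.78 at 0 Gy (1.68 to 1.89), the largest of the 6 items formed by the 5 other members and this sum. Both hair keratins lay higher in the DZNep libraries when counted apart. KRT81 had 23.9 and 19.4 CPM in the DZNep 4 Gy and DZNep 0 Gy libraries, against 7.25 and 5.62 CPM in DMSO 4 Gy and DMSO 0 Gy. KRT86 had 6.34 and 4.35 CPM in DZNep 4 Gy and DZNep 0 Gy, against 1.57 and 1.30 CPM in DMSO 4 Gy and DMSO 0 Gy. The count of KRT81 was 3.77 times that of KRT86 in DZNep 4 Gy (3.47 to 4.10), 4.47 times in DZNep 0 Gy (4.08 to 4.91), 4.63 times in DMSO 4 Gy (3.93 to 5.48) and 4.32 times in DMSO 0 Gy (3.67 to 5.11). DZNep 4 Gy had the lowest of these ratios, and the intervals cover counting error only.

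KRT19, a type I keratin without the usual tail domain, did not follow KRT8 and KRT18. It stood at 178 CPM in DZNep 4 Gy and 146 CPM in DZNep 0 Gy, against 247 CPM in DMSO 4 Gy and 153 CPM in DMSO 0 Gy. The lowest library was DZNep 0 Gy and the highest DMSO 4 Gy, and the drug groups overlapped. The log2 ratio of DZNep to DMSO was -0.47 at 4 Gy (-0.50 to -0.45) and -0.08 at 0 Gy (-0.10 to -0.05).

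KRT7, the type II keratin of ducts and lung epithelium, had 15.7 CPM in DZNep 4 Gy and 10.8 CPM in DZNep 0 Gy, against 11.9 CPM in DMSO 4 Gy and 6.93 CPM in DMSO 0 Gy. Its drug groups overlapped too, since DMSO 4 Gy lay above DZNep 0 Gy. Within a dose DZNep was the higher library, with log2 ratios of 0.40 at 4 Gy (0.30 to 0.50) and 0.64 at 0 Gy (0.52 to 0.76). KRT10 had 14.2 CPM in DZNep 4 Gy and 18.8 CPM in DZNep 0 Gy, against 9.76 CPM in DMSO 4 Gy and 10.1 CPM in DMSO 0 Gy. Both DZNep libraries were above both DMSO libraries, with log2 ratios of 0.54 at 4 Gy (0.43 to 0.65) and 0.90 at 0 Gy (0.81 to 0.998). KRT1, its usual partner, had no count in any library.

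**Figure D1:**
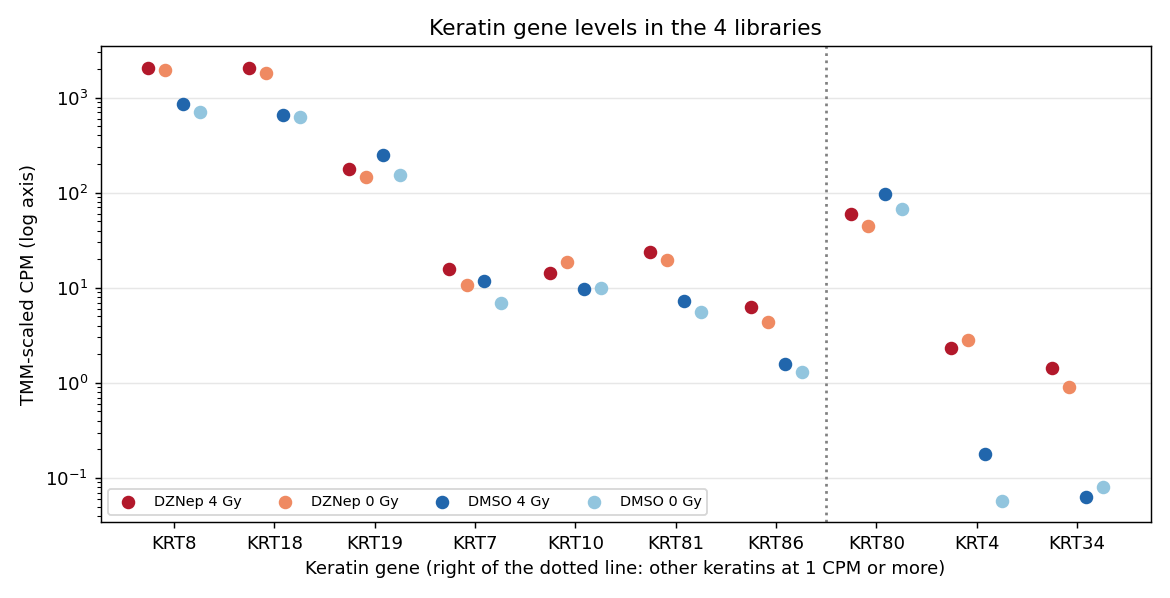
Levels of keratin genes in each library as TMM-scaled CPM on a log axis, 1 point per library, with the 7 members left of the dotted line and the other keratins that reached 1 CPM right of it. For KRT8, KRT18, KRT10, KRT81 and KRT86 both DZNep points lie above both DMSO points. For KRT19 and KRT7 the drug groups overlap, and for KRT80 both DZNep points lie below. The share of all genes that separate in this way is not given here.

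Counted at 2-fold or more with 10 CPM in the higher library, 3 of 6 items (KRT8, KRT18 and the sum of KRT81 and KRT86) were higher with DZNep at 4 Gy and the same 3 at 0 Gy, and 0 were lower at either dose. Over all genes at that level, 3.24% were at least 2-fold higher with DZNep at 4 Gy and 3.61% at 0 Gy, and 3.92% and 3.61% were at least 2-fold lower. These shares are printed for scale only, since the members were chosen on this contrast.

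The radiation ratios of KRT8, KRT18 and the hair keratins were smaller than their drug ratios. The log2 ratio of 4 Gy to 0 Gy was 0.08 in DZNep (0.07 to 0.08) and 0.28 in DMSO (0.27 to 0.29) for KRT8. For KRT18 it was 0.21 in DZNep (0.20 to 0.21) and 0.05 in DMSO (0.03 to 0.06). Both genes of the pair were thus higher in the 4 Gy library under either drug condition, but the larger ratio was in DMSO for KRT8 and in DZNep for KRT18. Averaged over both drug conditions, KRT7 had the largest radiation ratio of the members, at 0.54 in DZNep (0.44 to 0.64) and 0.78 in DMSO (0.66 to 0.90), a 1.45-fold and 1.72-fold difference. KRT19 came next in DMSO but not in DZNep, at 0.29 in DZNep (0.26 to 0.32) and 0.69 in DMSO (0.66 to 0.72). The sum of KRT81 and KRT86 had 0.34 in DZNep (0.27 to 0.42) and 0.35 in DMSO (0.22 to 0.48), nearly the same value with and without the drug. KRT10 was the exception in direction, with -0.41 in DZNep (-0.50 to -0.31) and -0.04 in DMSO, where the interval of -0.16 to 0.07 includes no difference. None of the members reached 2-fold in either radiation comparison (0 of 6 items in DZNep and 0 of 5 in DMSO), where 0.901% and 2.06% of all genes were at least 2-fold higher and 0.200% and 0.988% at least 2-fold lower.

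**Figure D2:**
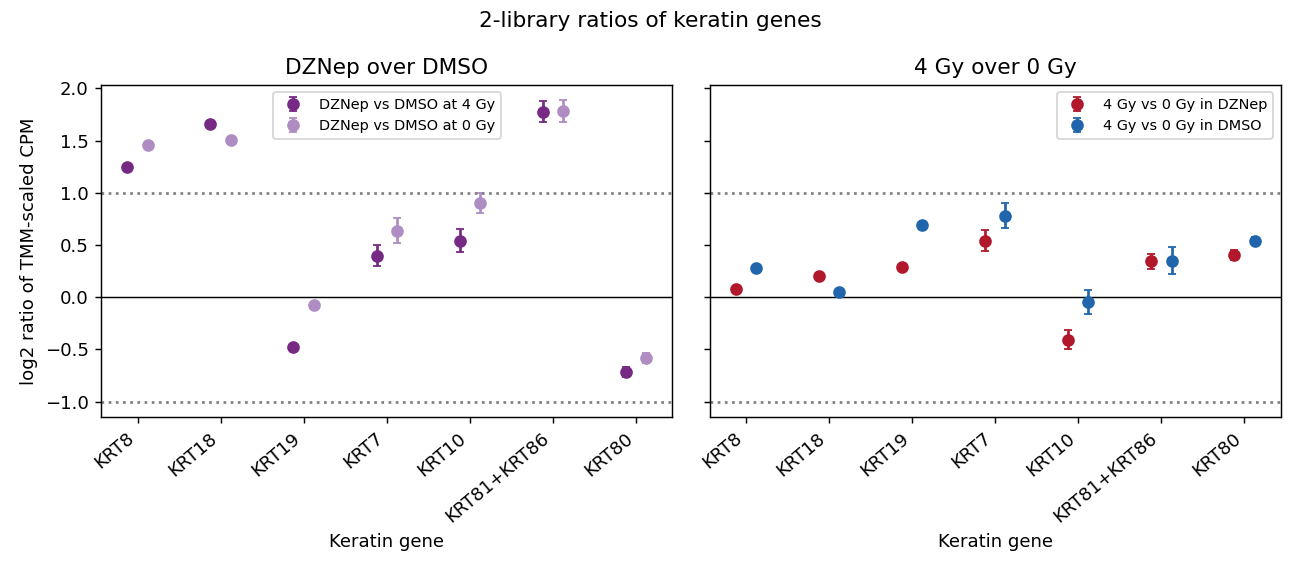
Log2 ratios between pairs of libraries for 5 members, the sum of KRT81 and KRT86, and KRT80, with DZNep over DMSO on the left and 4 Gy over 0 Gy on the right; bars are 95% counting intervals and dotted lines mark 2-fold. On the left KRT8, KRT18 and the hair keratin sum lie above the 2-fold line at both doses, and on the right no gene reaches it.

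Averaged over both doses, the log2 ratio of DZNep to DMSO was 1.78 for the hair keratin sum, 1.58 for KRT18, 1.35 for KRT8, 0.72 for KRT10, 0.52 for KRT7 and -0.27 for KRT19. The median over 13378 tested genes was -0.02 and the median size without its sign 0.315. Averaged over both drug conditions, the log2 ratio of 4 Gy to 0 Gy was 0.66 for KRT7, 0.49 for KRT19, 0.35 for the hair keratin sum, 0.18 for KRT8, 0.13 for KRT18 and -0.22 for KRT10, beside a median of 0.01 and a median size of 0.228. KRT7 and KRT19 were the members with a larger mean ratio for radiation than for the drug. The radiation ratio in DZNep minus the radiation ratio in DMSO was -0.40 for KRT19, -0.36 for KRT10, -0.24 for KRT7, -0.21 for KRT8, 0.16 for KRT18 and -0.00 for the hair keratin sum. With 1 library per group these differences have no error estimate. Their median size over all tested genes was 0.277, so those of KRT19 and KRT10 alone were above it.

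The keratin genes together took 0.433% of all counts in DZNep 4 Gy and 0.403% in DZNep 0 Gy, against 0.189% in DMSO 4 Gy and 0.161% in DMSO 0 Gy. This pool covers 55 keratin symbols in the tables, 26 of type II and 29 of type I. KRT8 and KRT18 alone made up 93.1% of keratin counts in DZNep 4 Gy and 93.7% in DZNep 0 Gy, against 80.1% in DMSO 4 Gy and 84.5% in DMSO 0 Gy. The 7 members held 98.5% and 98.7% of keratin counts in the DZNep 4 Gy and DZNep 0 Gy libraries, against 94.8% and 95.7% in DMSO 4 Gy and DMSO 0 Gy. The larger pool in the DZNep libraries was thus mostly made of KRT8 and KRT18 counts.

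Within the pair, the count of KRT8 over that of KRT18 was 0.990 in DZNep 4 Gy (0.984 to 0.995) and 1.08 in DZNep 0 Gy (1.08 to 1.09), against 1.32 in DMSO 4 Gy (1.30 to 1.33) and 1.12 in DMSO 0 Gy (1.11 to 1.13). DMSO 4 Gy stood apart, and the ratio was lower in the DZNep library at either dose. Per kilobase of coding length the ratio was 0.881 in DZNep 4 Gy and 0.964 in DZNep 0 Gy, against 1.17 in DMSO 4 Gy and 0.997 in DMSO 0 Gy. Per kilobase of transcript it was 0.727, 0.795, 0.967 and 0.823 in the same order of libraries. Which of the pair is the more abundant in DMSO 4 Gy therefore depends on the length used, while the order of the 4 libraries does not. Over all keratins, type II over type I per coding kilobase was 0.846 in DZNep 4 Gy and 0.919 in DZNep 0 Gy, against 0.947 in DMSO 4 Gy and 0.878 in DMSO 0 Gy. This ratio varied less across libraries than either total, which ran from 549 to 1491 CPM per coding kilobase for type II and from 625 to 1763 for type I. These RNA totals used coding length only, and the balance of the chains was not tested. The count of KRT19 over that of KRT18 was 0.0860 in DZNep 4 Gy and 0.0810 in DZNep 0 Gy, against 0.378 in DMSO 4 Gy and 0.242 in DMSO 0 Gy.

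**Figure D3:**
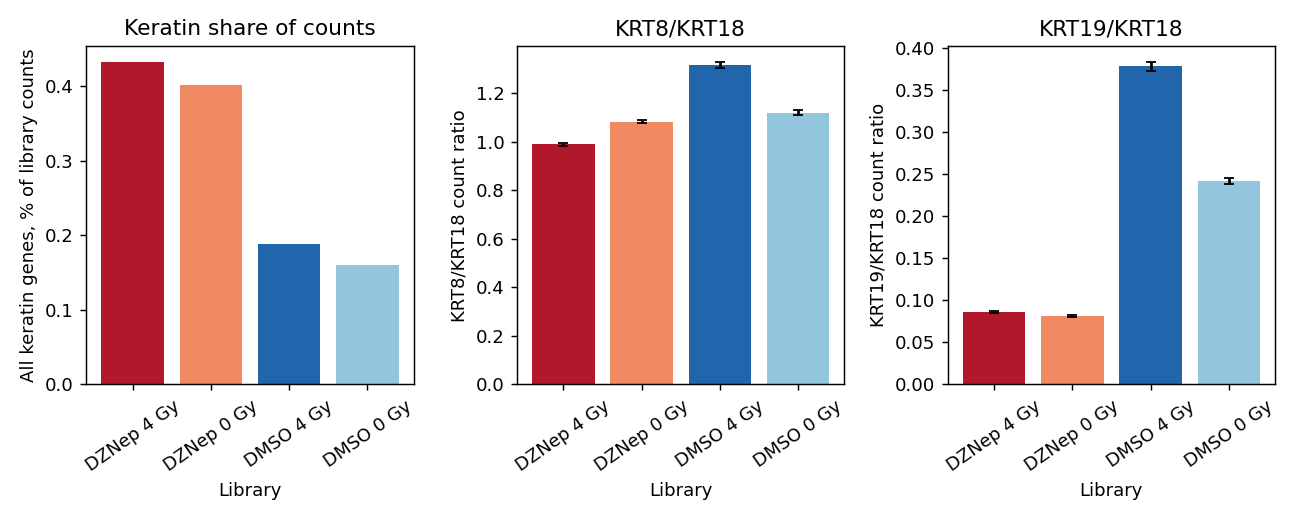
Bars per library for the share of all counts taken by keratin genes (percent), the KRT8 over KRT18 count ratio and the KRT19 over KRT18 count ratio, with 95% counting intervals on the ratios. The keratin share is 0.433% and 0.403% in the DZNep libraries and 0.189% and 0.161% in the DMSO libraries, and KRT19 is under 0.1 of KRT18 in both DZNep libraries only.

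As levels per coding kilobase, the members fall into 3 tiers in every library. KRT18 and KRT8 came first, KRT18 at 1604, 1392, 507 and 491 CPM per kilobase and KRT8 at 1414, 1342, 595 and 489 CPM per kilobase in DZNep 4 Gy, DZNep 0 Gy, DMSO 4 Gy and DMSO 0 Gy. KRT19 was next, at 148, 121, 206 and 128 CPM per kilobase in the same libraries, and KRT7, KRT10, KRT81 and KRT86 stood between 0.892 and 15.8 CPM per kilobase. In DMSO 0 Gy the KRT18 and KRT8 levels of 491 and 489 CPM per kilobase are not separated by any replicate error that these libraries could give.

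Of the 48 other keratin genes, 25 had no count in any library, 20 had counts but stayed below 1 CPM, and 3 reached 1 CPM. KRT80, a type II keratin of many epithelia, had the most counts of these, at 59.6 CPM in DZNep 4 Gy and 45.1 CPM in DZNep 0 Gy, against 98.0 CPM in DMSO 4 Gy and 67.4 CPM in DMSO 0 Gy. Per coding kilobase its level was 3.94 times that of KRT7 in DZNep 4 Gy, 4.34 times in DZNep 0 Gy, 8.53 times in DMSO 4 Gy and 10.1 times in DMSO 0 Gy, although it is not among the members. KRT80 fell with DZNep (log2 fold change -0.65 with an SE of 0.15, adjusted p = 0.0102 in edgeR's quasi-likelihood test over all 4 libraries, lower in 2 of 2 dose pairs). For radiation it had 0.47 (SE 0.15, adjusted p = 0.109), and did not pass. KRT80 and KRT19 thus shared their highest library, DMSO 4 Gy, and their lowest, DZNep 0 Gy. KRT4, a type II keratin of wet stratified epithelia such as the oesophagus, had 2.34 CPM in DZNep 4 Gy and 2.85 CPM in DZNep 0 Gy, against 0.178 CPM in DMSO 4 Gy and 0.0578 CPM in DMSO 0 Gy. In the same order of libraries its counts were 266, 369, 20 and 8. The additive model put its log2 fold change with DZNep at 4.54 (SE 0.49). KRT4 passed the filter of 1 CPM in 2 libraries only through the DZNep libraries, so its drug effect is given without a test. KRT34, a type I hair keratin, had 162 and 116 counts in DZNep 4 Gy and DZNep 0 Gy, against 7 and 11 counts in DMSO 4 Gy and DMSO 0 Gy. It was below 1 CPM in 3 of 4 libraries and was not tested. Basal keratins were near absent, with KRT5 at 0 to 5 counts and KRT14 at 0 to 8 counts. The tables also held 8 keratin pseudogene symbols, among them KRT8P41 with 30 and 40 counts in the DZNep 4 Gy and DZNep 0 Gy libraries, against 6 and 7 counts in DMSO 4 Gy and DMSO 0 Gy.

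Promoter sequences were at hand for KRT8 and KRT10, members with a large and a smaller drug ratio. They cover 250 bases before to 50 after a RefSeq start on GRCh38.p14, which for KRT8 is a single start among those of 5 protein-coding transcripts. Capitals mark matches on either strand to the TATA box TATAAA, the CCAAT box (its 5 letters), the GC box GGGCGG, the AP-1 motif TGANTCA or the E box CANNTG.
KRT8, chr12:52926420-52926719, minus strand: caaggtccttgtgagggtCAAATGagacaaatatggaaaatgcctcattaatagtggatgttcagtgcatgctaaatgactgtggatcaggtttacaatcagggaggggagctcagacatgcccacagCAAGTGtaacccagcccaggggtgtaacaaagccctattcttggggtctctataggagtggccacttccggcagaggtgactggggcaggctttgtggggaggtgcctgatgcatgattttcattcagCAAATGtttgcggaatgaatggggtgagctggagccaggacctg
KRT10, chr17:40822565-40822864, minus strand: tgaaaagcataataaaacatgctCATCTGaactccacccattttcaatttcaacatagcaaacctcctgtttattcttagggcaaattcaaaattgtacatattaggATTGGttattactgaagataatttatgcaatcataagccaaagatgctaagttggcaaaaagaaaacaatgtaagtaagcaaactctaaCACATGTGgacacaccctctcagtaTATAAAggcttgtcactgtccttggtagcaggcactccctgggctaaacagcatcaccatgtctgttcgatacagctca
The KRT8 window held 3 E boxes and no match to the other 4 motifs. The KRT10 window held a TATAAA match at position -29 from the start, a CCAAT match on the other strand at -143 and 3 E boxes, of which those at -54 and -52 overlap. Over 35116 windows of this length, 11.5% held TATAAA, 34.6% CCAAT, 45.0% GGGCGG, 7.71% TGANTCA and 68.7% CANNTG.

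Transcription factors linked to keratin genes in epithelial cells were listed with earlier results of these data known, so the shares are for scale only. Of 33 listed, 25 were tested, 12 rose with DZNep, 0 fell and 13 did not pass. Their median log2 fold change was 0.63 beside -0.02 over all tested genes. In the same fit 23.1% of 13378 genes passed, of which those that rose were 10.8% and those that fell 12.3% of all. ELF3, an ETS factor of differentiating epithelium, had 14.6 CPM in DZNep 4 Gy and 4.65 CPM in DZNep 0 Gy, against 1.67 CPM in DMSO 4 Gy and 1.16 CPM in DMSO 0 Gy (log2 fold change 2.57, SE 0.30, adjusted p = 9.69e-05 in edgeR's quasi-likelihood test). The DZNep 4 Gy library was high even beside the other DZNep library. JUNB, a subunit of the AP-1 dimer, had 86.5 and 76.9 CPM in DZNep 4 Gy and DZNep 0 Gy, against 34.0 and 21.4 CPM in DMSO 4 Gy and DMSO 0 Gy (1.59, SE 0.17). KLF4, a factor of epithelial barrier differentiation, had 124 and 95.6 CPM in DZNep 4 Gy and DZNep 0 Gy, against 51.3 and 34.3 CPM in DMSO 4 Gy and DMSO 0 Gy (1.38, SE 0.16). For both genes the DZNep libraries lay above the DMSO libraries with no overlap. SNAI1, a repressor of epithelial genes, also rose, with 14.3 and 15.8 CPM in DZNep 4 Gy and DZNep 0 Gy against 7.22 and 7.95 CPM in DMSO 4 Gy and DMSO 0 Gy (0.99, SE 0.19). The repressors SNAI1 and SNAI2 thus rose beside the activators of the list. EHF (2.41), GRHL1 (1.91) and FOSB (1.55) rose while staying below 5 CPM in every library. At that level EHF passed the filter of 1 CPM mainly through the DZNep libraries, so its call, counted among the 12, is description only. SNAI2 (0.82), HOXC13 (0.81), TFAP2C (0.75), KLF5 (0.65) and ETS1 (0.63) rose less. GRHL2 and OVOL1 were at or near 0. With drug as the only term in the model, 6 of the 12 passed.

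Radiation raised 3 of the 25 and lowered 0, with a median of 0.48 beside 0.01 over all genes, of which 3.06% passed, 2.17% rose and 0.897% fell. GRHL3, a grainyhead factor of the epidermis, had 24.9 CPM in DZNep 4 Gy and 8.47 CPM in DZNep 0 Gy, and 30.1 CPM in DMSO 4 Gy and 10.2 CPM in DMSO 0 Gy (log2 fold change 1.56, SE 0.18, adjusted p = 0.000529 in the same test). Its 4 Gy libraries lay far above its 0 Gy libraries under both drug conditions. HOXC13, a homeobox factor of hair that acts on hair keratin genes, had 20.7 and 12.4 CPM in DZNep 4 Gy and DZNep 0 Gy, and 13.0 and 6.41 CPM in DMSO 4 Gy and DMSO 0 Gy (0.88, SE 0.19). FOSL2, an AP-1 subunit, had 0.76 (SE 0.18). HOXC13 was the factor of the list that rose with both drug and radiation. With dose as the only term in edgeR, 0 genes of any kind passed for radiation (524 at an unadjusted p under 0.05).

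**Figure D4:**
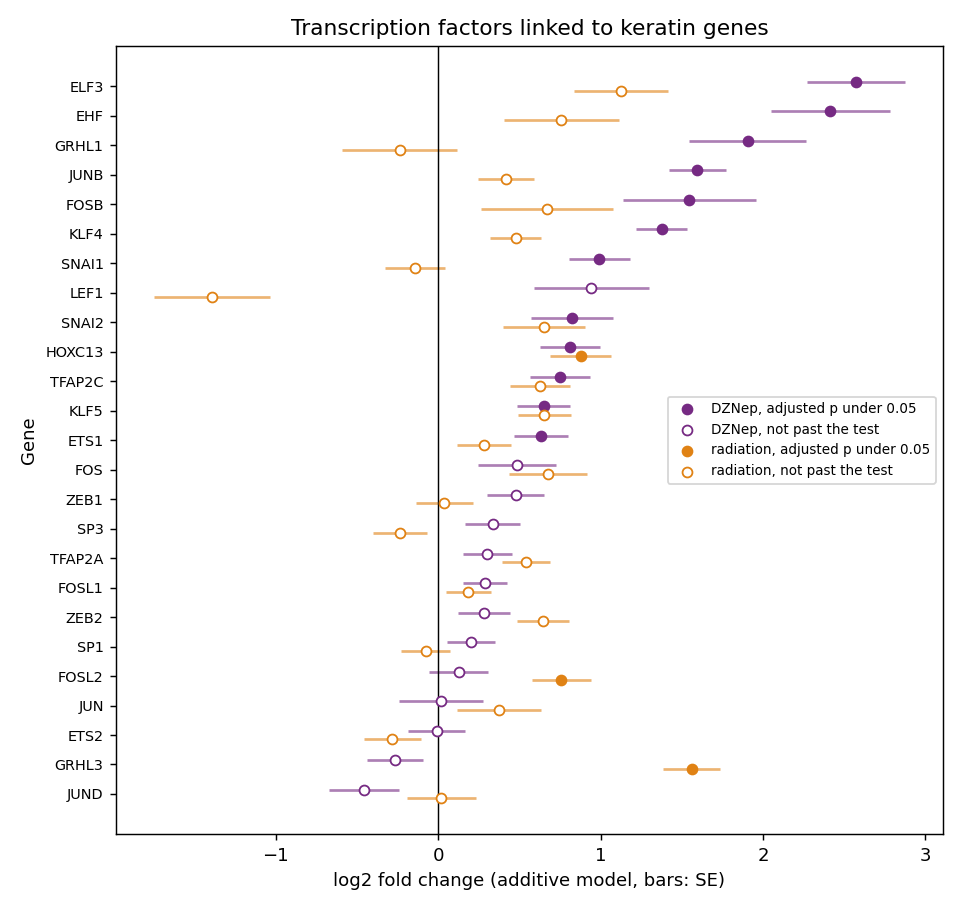
Log2 fold changes of the 25 tested keratin-linked transcription factors for DZNep (purple) and radiation (orange) in the additive model, with bars of 1 SE; filled points passed an adjusted p of 0.05. The 12 filled purple points all lie right of 0, from 0.63 for ETS1 to 2.57 for ELF3. The filled orange points are HOXC13, FOSL2 and GRHL3. The list was made with earlier results of these data known.

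Of 16 desmosome genes listed, 10 were tested, 2 rose with DZNep, 0 fell, and none passed for radiation, where 10.8% of all genes rose and 12.3% fell with DZNep. JUP (plakoglobin), which links desmosomal cadherins to the filament side, had 1252 and 1018 CPM in DZNep 4 Gy and DZNep 0 Gy, against 835 and 484 CPM in DMSO 4 Gy and DMSO 0 Gy (0.83, SE 0.15). PKP2, a plakophilin of the desmosome plaque, had 24.9 and 17.7 CPM in DZNep 4 Gy and DZNep 0 Gy, against 16.8 and 10.2 CPM in DMSO 4 Gy and DMSO 0 Gy (0.69, SE 0.18). DSP (desmoplakin), the protein that ties keratin filaments to the desmosome, was too low to test, at 0.651 and 1.15 CPM in DZNep 4 Gy and DZNep 0 Gy against 0.320 and 0.665 CPM in DMSO 4 Gy and DMSO 0 Gy.

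Hemidesmosome and basal adhesion genes had 10 of 11 tested, of which 3 rose with DZNep, 1 fell and 6 did not pass (median 0.14). Over all genes 10.8% rose and 12.3% fell with DZNep, with a median of -0.02. LAMB3, a chain of the laminin that hemidesmosomes bind, had 68.4 and 44.1 CPM in DZNep 4 Gy and DZNep 0 Gy, against 25.4 and 14.9 CPM in DMSO 4 Gy and DMSO 0 Gy (1.50, SE 0.16). ITGA3, an integrin subunit that binds this laminin, had 120 and 74.8 CPM in DZNep 4 Gy and DZNep 0 Gy, against 48.3 and 24.5 CPM in DMSO 4 Gy and DMSO 0 Gy (1.46, SE 0.16). ITGB4, the integrin chain that reaches the keratin filaments through plectin, fell, with 29.1 and 15.2 CPM in DZNep 4 Gy and DZNep 0 Gy against 39.9 and 22.7 CPM in DMSO 4 Gy and DMSO 0 Gy (-0.52, SE 0.17, adjusted p = 0.0403 in the same test). That fall did not pass with no filter or with drug as the only term (highest adjusted p = 0.463 in edgeR). All of ITGB4 (0.87), ITGA3 (0.83) and LAMB3 (0.70) rose with radiation, 3 of 10 and 0 falls, with a median of 0.20. The radiation rises of ITGA3 and LAMB3 did not pass with no filter, and none of the 3 passed with dose as the only term. The shares over all genes were 2.17% up and 0.897% down for radiation, with a median of 0.01.

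Among proteins that bind or modify keratin filaments, chaperones included, 2 of 22 tested rose with DZNep, 1 fell and 19 did not pass (median -0.07). Across all genes 10.8% rose and 12.3% fell with DZNep, and 2.17% rose and 0.897% fell with radiation. DNAJB1, a heat shock co-chaperone, had 94.9 and 105 CPM in DZNep 4 Gy and DZNep 0 Gy, against 48.2 and 72.3 CPM in DMSO 4 Gy and DMSO 0 Gy (0.76, SE 0.16). The fall was FBF1 (-1.02), a keratin-binding protein of cilia and epithelial junctions that was below 3 CPM. PLEC (plectin), which crosslinks keratin filaments, was counted in the hemidesmosome list and not among the 22. It did not pass, at 387 and 357 CPM in DZNep 4 Gy and DZNep 0 Gy and 382 and 431 CPM in DMSO 4 Gy and DMSO 0 Gy. Radiation lowered 1 of the 22, HSPA8, a constitutive heat shock chaperone, with 648 CPM in DZNep 4 Gy and 1112 CPM in DZNep 0 Gy, and 757 CPM in DMSO 4 Gy and 1235 CPM in DMSO 0 Gy (-0.74, SE 0.13).

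Other intermediate filament genes moved in both directions for DZNep, 3 of 11 tested up, 4 down and 4 not past the test (median -0.23). None was called for radiation. Among all genes 10.8% rose and 12.3% fell with DZNep (median -0.02), and 2.17% rose and 0.897% fell with radiation. NEFL, the light neurofilament chain, had 110 and 98.4 CPM in DZNep 4 Gy and DZNep 0 Gy, against 57.5 and 50.1 CPM in DMSO 4 Gy and DMSO 0 Gy (0.95, SE 0.15). NEFM (1.30) and NEFH (1.27) rose below 2 CPM. At that level both passed the filter of 1 CPM mainly through the DZNep libraries, so their calls are description only. BFSP1, a beaded filament protein of the eye lens, fell the most, with 1.40 and 3.05 CPM in DZNep 4 Gy and DZNep 0 Gy, against 13.9 and 10.5 CPM in DMSO 4 Gy and DMSO 0 Gy (-2.53, SE 0.32). SYNM (-0.93), SYNC (-0.82) and NES (-2.11), filament genes of muscle and progenitor cells, fell too. VIM, the filament protein of mesenchymal cells, had 770 and 755 CPM in DZNep 4 Gy and DZNep 0 Gy, against 976 and 867 CPM in DMSO 4 Gy and DMSO 0 Gy. Its log2 fold change was -0.27 (SE 0.13, adjusted p = 0.159 in the same test), and it did not pass.

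Of 25 genes of simple epithelium outside the keratins, 10 were tested, 2 rose, 1 fell and 7 did not pass for DZNep (median 0.16). None passed for radiation (median 0.44). The medians over all genes were -0.02 and 0.01, with 10.8% up and 12.3% down for DZNep. MUC1, a membrane mucin, had 120 and 110 CPM in DZNep 4 Gy and DZNep 0 Gy, against 53.9 and 28.5 CPM in DMSO 4 Gy and DMSO 0 Gy (1.55, SE 0.20). TJP1, a tight junction scaffold, had 0.55 (SE 0.14), and SPINT1, an inhibitor of epithelial surface proteases, had 6.77 and 5.10 CPM in DZNep 4 Gy and DZNep 0 Gy, against 20.3 and 11.7 CPM in DMSO 4 Gy and DMSO 0 Gy (-1.39, SE 0.20). The other 15 genes, CDH1, EPCAM and RAB25 among them, were too low to test. Over all 6 lists, 24 of 88 tested genes rose with DZNep (27.3%) and 7 fell (7.95%), and 6 rose and 1 fell with radiation. These stand beside 10.8% up and 12.3% down over all genes for DZNep, and 2.17% and 0.897% for radiation. The lists were made with earlier results of these data known, so these shares are for scale only.

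**Figure D5:**
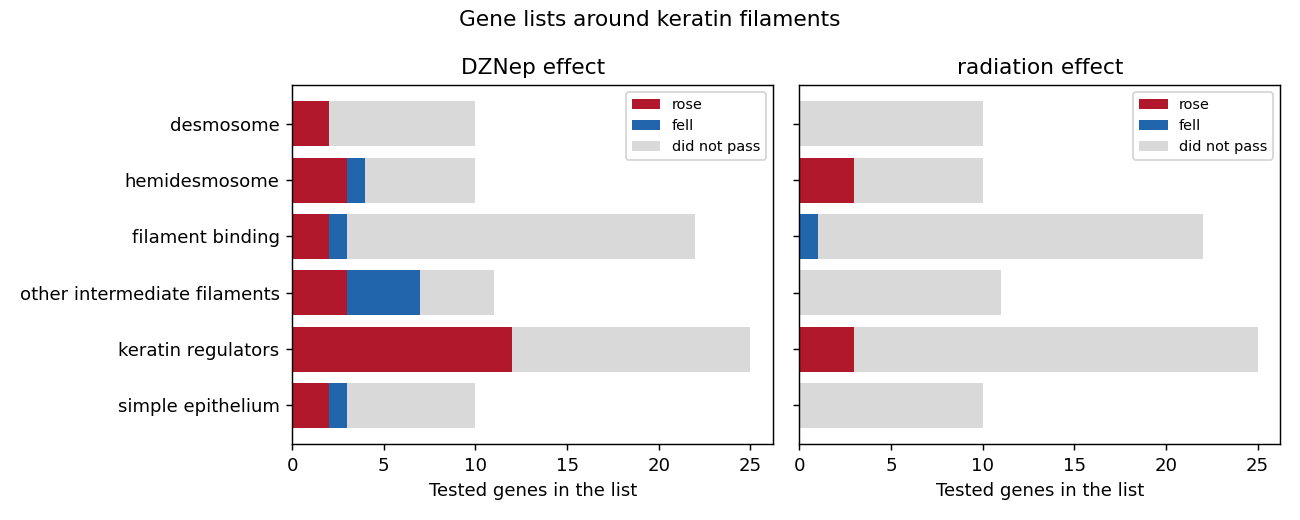
Numbers of tested genes that rose, fell or did not pass in 6 lists of keratin-related genes, for the DZNep effect on the left and the radiation effect on the right. The keratin regulators had 12 of 25 genes that rose with DZNep and none that fell. The other intermediate filaments had 3 that rose and 4 that fell. Over all tested genes 10.8% rose and 12.3% fell with DZNep, and the lists were made with earlier results of these data known.

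The genes whose pattern over the 4 libraries lay nearest to KRT8, among 8408 at 10 CPM or more, were ANKRD34A, ATP8B2, PTHLH, TNXB and MISP, at root mean square distances of 0.0557 to 0.0681 on the centred log2 scale. Those nearest to KRT18 were ZNF296, B4GALT4, DNAAF3, CHAC1 and IER2, at 0.0404 to 0.0890, and those nearest to the hair keratin sum were GFRA1, ITPR1, CITED4, CDC42EP2 and CHAC1, at 0.0400 to 0.0986. KRT8 and KRT18 were 0.149 apart, and KRT18 took place 37 by nearness to KRT8, while KRT8 took place 18 by nearness to KRT18. With only 4 libraries such likeness is common, since 693 genes had a Pearson r above 0.95 with KRT8.

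In the RefSeq order on GRCh38, KRT8 and KRT18 stand at the end of the type II keratin cluster of chromosome 12. On the keratin side, KRT78, KRT79, KRT3 and KRT76 were below 0.3 CPM in every library and only KRT4 was tested. On the other side, EIF4B, a translation initiation factor, fell with DZNep (-0.60, SE 0.14, adjusted p = 0.00950 in the same test). TNS2, a tensin of focal adhesions, fell further, with 49.3 and 38.0 CPM in DZNep 4 Gy and DZNep 0 Gy, against 152 and 119 CPM in DMSO 4 Gy and DMSO 0 Gy (-1.64, SE 0.15, adjusted p = 2.45e-05 in the same test). SPRYD3 had 0.63 (adjusted p = 0.0513) and IGFBP6 0.55 (adjusted p = 0.0619) in that test and did not pass, and SOAT2 was at or near 0. These calls depended on the settings except that of TNS2, since EIF4B did not pass with drug as the only term (adjusted p = 0.0920), while SPRYD3 passed under 3 of 7 alternatives (lowest adjusted p = 0.0183) and IGFBP6 under 1 of 7 (adjusted p = 0.0442), all in edgeR.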

How the data were processed

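For each library the authors deposited a table of raw counts by gene symbol. The hg19 build, TopHat and edgeR are named in their notes, per the submitters' processing notes, and per the labels' protocols RNA was extracted with Trizol and libraries were made with a Lexogen SENSE mRNA kit. Which versions and counting program they used, and whether strand was used, is not given in the sources used here. Members and gene lists were chosen with earlier results of these data known.

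Genes at 1 CPM or more in at least 2 libraries were kept, which left 13378, all 7 members among them, and scaled by TMM in edgeR 4.0.16 (R 4.3.3). The DZNep and radiation effects were tested by edgeR's quasi-likelihood test in a model with drug and dose as additive terms, fitted to all 4 libraries, with Benjamini-Hochberg adjustment at 0.05. The model has 1 residual and 11.5 prior degrees of freedom. With 1 library per group, that residual is the difference between the radiation ratios in DZNep and in DMSO. What edgeR calls the biological coefficient of variation, 0.163, comes from this residual and not from replicates. P-values reflect only how these 4 libraries vary, which may be technical. A difference between 2 libraries has no replicate check. Log2 ratios used a prior count of 2, and 95% intervals are exact conditional binomial ones that cover counting error only.

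All members were named, with other keratins at 1 CPM, neighbouring genes, the 5 nearest patterns, and up to 4 called genes per list and effect at 10 CPM or more; others named complete a count. Coding sequences and lengths came from GENCODE v29 (aligned with Biopython 1.88) and promoters from RefSeq, matched for 2 of 7 members. Both are of another build than the counts, so no other coordinates are given. Alternatives were RLE and plain scaling, other filters and prior counts, DESeq2 1.42.0, models of 1 factor, each library left out and, added after seeing the data, TMM over all symbols and transcript length. The test was checked on simulated data. Some items that the naming rule covers are not reported here.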

Additional observations from a re-analysis of the deposited data

Results flagged for a closer look

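The members, the other keratins at 1 CPM and the called list genes at 10 CPM or more reported here were screened. Of these, 2 had a radiation ratio of opposite sign in the DZNep and the DMSO libraries, with neither counting interval reaching 0. Other genes named in the text, PLEC among them, were not screened. The difference between the drug conditions was not tested. The log2 ratio of 4 Gy to 0 Gy was -0.28 in DZNep and 1.39 in DMSO for KRT4, which had 20 and 8 counts in the DMSO 4 Gy and DMSO 0 Gy libraries. For BFSP1 it was -1.12 in DZNep and 0.40 in DMSO.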

How the results depend on the processing

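No paired analysis was possible because each group has 1 library and the labels give no replicate numbers. The members' 2-fold counts were the same under every scaling and prior count tried. The mean log2 ratio of DZNep to DMSO was 1.36 for KRT8 and 1.59 for KRT18 with RLE factors, and 1.33 and 1.56 with plain library sizes. With a library left out it ranged from 1.25 to 1.46 for KRT8 and from 1.50 to 1.66 for KRT18. These ends are the ratios of the single doses given above, so they add no further check. The mean log2 ratio of 4 Gy to 0 Gy was 0.19 for KRT8 and 0.14 for KRT18 with RLE factors, and 0.15 and 0.094 with plain library sizes. With a library left out it ranged from 0.075 to 0.28 for KRT8 and from 0.048 to 0.21 for KRT18. These ends are the ratios within a single drug condition given above. For KRT19 the mean ratio of DZNep to DMSO was -0.08 without either 4 Gy library and -0.47 without either 0 Gy library. Both are again its single-dose ratios.

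With drug as the only term, 355 genes rose and 366 fell with DZNep, against 1446 and 1640 in the additive model, and the lists had 10 rises and 3 falls, against 24 and 7. Of the 31 list calls, 13 passed under every alternative that could be fitted (among them ELF3, GRHL1, JUNB, KLF4, LAMB3 and MUC1), 14 were lost with drug as the only term alone, and 4 elsewhere too (FBF1, ITGB4, NEFH and NEFM). KRT80 had an adjusted p of 0.163 with drug as the only term in edgeR, its highest over 7 alternatives, whose lowest was 0.000897.

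Radiation calls depended more on the settings. Rises numbered 290 in the additive model, 134 with no filter, 590 with a 10 CPM filter, 182 with TMM over all symbols, 447 with DESeq2 and 0 with dose as the only term in edgeR (524 at an unadjusted p under 0.05, both directions). Falls numbered 120, and 266 with plain library sizes, 65 with no filter, 441 with a 10 CPM filter, 71 with TMM over all symbols, 214 with DESeq2 and 0 with dose as the only term. The share of rises was 70.7%, against 56.9% with plain library sizes. List rises numbered 6, and 10 with RLE factors, 2 with no filter, 16 with a 10 CPM filter, 11 with DESeq2 and 0 with dose as the only term. List falls numbered 1, and 3 with RLE factors, 4 with plain library sizes, 7 with a 10 CPM filter, 2 with DESeq2 and 0 with dose as the only term. Of the 7 list calls for radiation, 0 passed under every alternative. With dose as the only term alone 3 were lost, and 4 were lost elsewhere too (FOSL2, HOXC13, ITGA3 and LAMB3). The radiation value of KRT4, which did not pass, was -0.21 with dose as the only term. The causes were not tested.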
